A study of Arabidopsis thaliana with 24 samples.

Results

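QQS (AT3G30720), named for qua-quine starch, was followed in germinating seeds of Arabidopsis thaliana on Affymetrix ATH1 arrays, as 1 of 13286 genes that the platform annotation and the gene table name. Its 1 probe set, found by its locus code through that annotation and gene table, is paired with no other gene. QQS was chosen by its signals in these same samples, whose differences between the 4 groups were already known, so its levels and differences are described here with their spread and without a test.

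QQS is an orphan gene, one with no recognisable relative outside its own species, and it encodes a very small protein. In Arabidopsis plants, lowering QQS raises leaf starch, while raising QQS lowers starch and increases protein, and its protein binds NF-YC4, a subunit of the NF-Y transcription factor complex. The gene lies among transposon remnants, and its transcript level is known to differ between stocks and accessions with the DNA methylation at the locus.

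The 24 arrays formed 4 groups of 6, described by the submitters as biological replicates. Wild-type seeds were of the Columbia background and were set beside seeds of the pkl mutant. Seeds of either genotype germinated with 0.01% methanol, the solvent, or with 10 nM uniconazole in that solvent, all under continuous light. The PKL gene, altered in pkl, encodes PICKLE, a chromatin remodeller of the CHD3 type. Uniconazole, a triazole, blocks the synthesis of gibberellin, a hormone that promotes germination. The labels give neither the pkl allele nor the age at harvest, and PKL itself was not analysed here, so the genotype labels could not be checked by its level. Values are linear MAS5 signals, and the bacterial control level, 54.9, is the 95th percentile of 648 signals from 27 probe sets for bacterial transcripts.

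QQS was brighter in pkl than in wild type with solvent and with uniconazole. In wild type with solvent its signal was 73.3 ± 34.9 (SD, n = 6), with a lowest value of 16.7, a median of 71.7 and a highest value of 123.7. In pkl with solvent it was 269 ± 50.8, running from 181.7 through a median of 285.95 to 324.9. These groups did not overlap. On solvent, each of the 6 pkl signals exceeded every wild-type one, as was the case for 3.71% of the probe sets tested. The ratio of the means was 3.67, and the difference in log2(signal + 16), the scale of the fit, was 1.77 ± 0.27 (SE). The offset of 16 damps noise in dim signals and understates their differences.

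With uniconazole the wild-type signal was 64.3 ± 33.8 (SD, n = 6), with a lowest value of 30.2, a median of 50.5 and a highest value of 119.0. In pkl with uniconazole it was 194 ± 42.3, with a lowest value of 149.4, a median of 179.1 and a highest value of 262.0. Here too every pkl array was above every wild-type array, against 4.95% of probe sets. The means differed 3.01-fold, a log2 difference of 1.46 ± 0.27 (SE). Taking both media together, the dimmest of 12 pkl arrays, at 149.4, was 1.21 times the brightest of 12 wild-type arrays, at 123.7. Such a separation of the genotypes held for 0.844% of the probe sets.

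**Figure D1:**
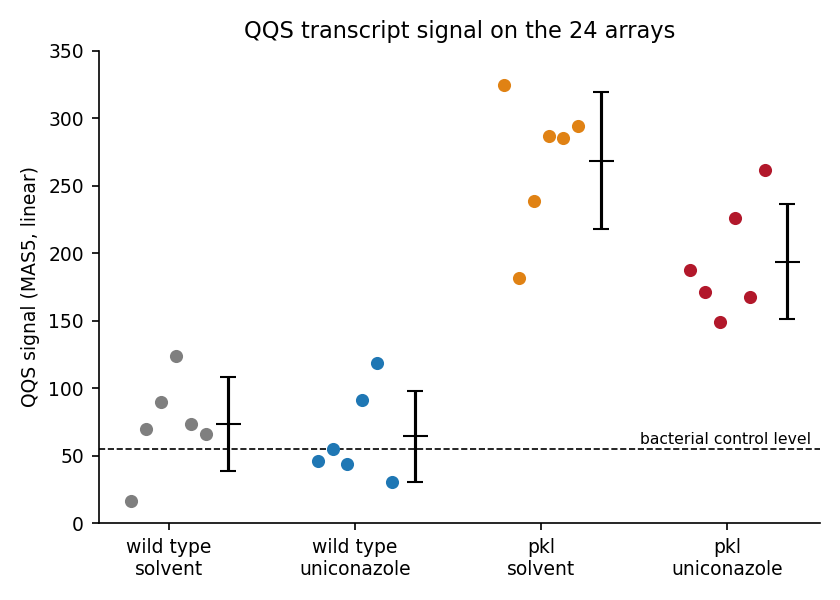
QQS signal (MAS5, linear scale) on each of the 24 arrays, in 4 groups of 6, with the group mean and SD beside the points and the bacterial control level of 54.9 as a dashed line. The 12 pkl arrays lie between 149.4 and 324.9 and the 12 wild-type arrays between 16.7 and 123.7.

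The wild-type signals were close to background. With solvent 5 of 6 wild-type arrays were above the bacterial control level, and with uniconazole 2 of 6, while all 12 pkl arrays were above it. On the array of wild type with solvent where QQS was dimmest, 13.3% of probe sets were dimmer than QQS, and on the brightest array of pkl with solvent 48.7% were. Both wild-type means exceeded the bacterial control level, so the ratios above are not given as bounds. However, 5 of the 12 signals behind the wild-type means lay at or under that level. In wild type with uniconazole the median, 50.5, lay under it as well, so the ratio there rests on signals near background. In whole seeds, fewer cells with the transcript and less transcript per cell cannot be told apart.

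Uniconazole went with smaller differences. In pkl the QQS mean was 0.722 times as high with uniconazole as with solvent, a log2 difference of -0.44 ± 0.27 (SE). The groups overlapped: 3 of 6 treated arrays lay below all untreated ones, and the other treated arrays lay among them. In wild type the ratio was 0.878 and the log2 difference -0.13 ± 0.27 (SE), less than the spread between replicates. All 6 treated wild-type arrays lay within the range of the untreated ones. The difference between the pkl effects with and without uniconazole was -0.31 ± 0.39 (SE) on the log2 scale. These SEs come from a spread pooled over the 4 groups. On the log2 scale the SD was 0.28 in both pkl groups, 0.71 in wild type with solvent and 0.58 with uniconazole. The pooled SE is thus wider than the pkl arrays alone would give, and narrower than the wild-type arrays alone would give.

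By mean signal the groups stood in the order wild type with uniconazole, wild type with solvent, pkl with uniconazole and pkl with solvent. The wild-type pair did not differ beyond its spread. The step from wild type with solvent to pkl with uniconazole, where the treatment also differed, was 2.65-fold with no overlap. That is part of the separation of all 12 pkl from all 12 wild-type arrays, which held for 0.844% of probe sets. The share separated in this step alone was not counted. The pkl pair overlapped.

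One array weighed on the smaller differences. Without the wild-type array with solvent numbered 1, where QQS was at 16.7, the log2 difference of uniconazole in wild type was -0.40 in place of -0.13, the difference between the pkl effects was -0.05 in place of -0.31, and the pkl effect in solvent was 1.51 in place of 1.77. Without the array numbered 4 of that group, at 123.7, these values were 0.02, -0.47 and 1.93.

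QQS was placed among all 22746 probe sets by the size of its differences, as a description. Ordered from the highest log2 difference downwards it was number 42 for pkl against wild type with solvent and number 104 with uniconazole. For uniconazole against solvent, 37.9% of probe sets had a smaller difference in size than QQS in wild type and 82.3% in pkl.

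The spread of QQS between replicate arrays was wide. Its pooled SD within groups was 0.50 on the log2 scale, against a median of 0.24 over all probe sets. Of all probe sets 78.7% had a smaller SD than QQS. Among 2544 probe sets whose mean lay within 0.5 log2 units of that of QQS, the median SD was 0.38, and 78% had a smaller SD than QQS. The wild-type groups varied more in proportion, with coefficients of variation of 47.7% with solvent and 52.6% with uniconazole, than the pkl groups, with 18.9% and 21.8%.

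**Figure D2:**
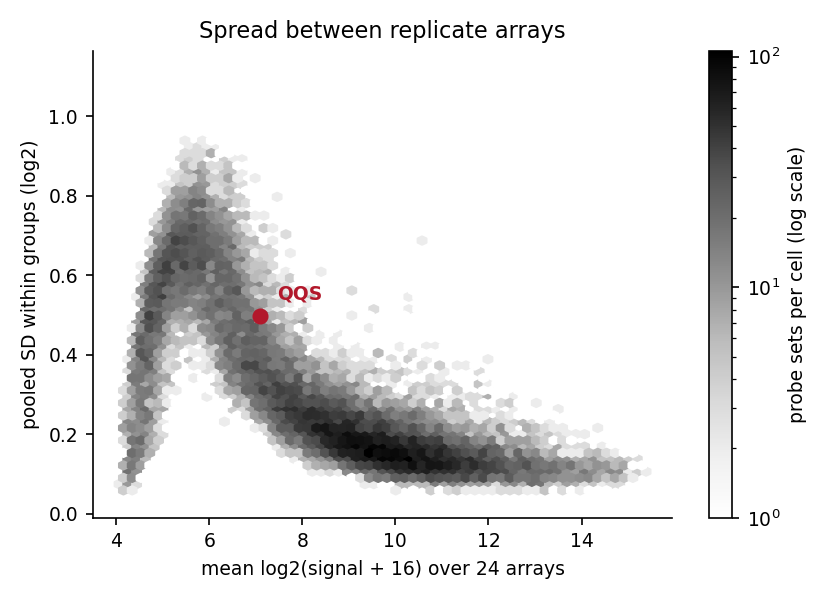
Pooled SD within the 4 groups (log2 scale) against mean log2(signal + 16) over 24 arrays for all 22746 probe sets, shaded by the number of probe sets per cell on a log scale. QQS, the red point, lies at a mean of 7.10 and an SD of 0.50, in the upper part of the probe sets of similar brightness.

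Genes of starch metabolism were counted from lists made by function. Starch is built in plastids from ADP-glucose by ADP-glucose pyrophosphorylase, starch synthases and branching enzymes. It is broken down after phosphorylation of its surface glucans, by amylases, debranching enzymes and glucan transferases. Of 17 listed synthesis genes 4 had a named probe set, and of 24 breakdown genes 3. The tests below come from limma, fitted over all probe sets and adjusted by Benjamini-Hochberg, and a gene rose or fell where the adjusted p was below 0.05.

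None of the 7 starch genes passed for pkl against wild type with solvent, where QQS differed most, against 11.7% of all probe sets. By limma 0 had an unadjusted p below 0.05. Their log2 changes ran from -0.32 to 0.38 with a median of -0.01, and the median of all probe sets was 0.00. PWD (AT5G26570), phosphoglucan water dikinase, which marks starch granules for breakdown, measured 1889 ± 235 in the mutant and 1900 ± 351 in wild type (signal, SD, n = 6). DPE1 (AT5G64860), a plastid glucan transferase that recycles short maltodextrins, had 684 ± 66.2 and 688 ± 67.5. For PWD and DPE1 the genotypes overlapped on solvent.

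With uniconazole 1 of the 7 starch genes fell in pkl, against 8.69% of all probe sets that fell and 18.6% called in either direction. The 7 had a median log2 change of 0.11 against 0.04 over all probe sets. By limma 4 of the 7 had an unadjusted p below 0.05. The gene that fell was AT5G39790, a locus with no symbol in the gene table, at 432 ± 33.8 in the mutant against 581 ± 59.5 in wild type (signal, SD, n = 6, log2 change -0.41 ± 0.08, SE, limma adjusted p = 4.11e-04). None of its pkl signals reached the lowest wild-type one, though the share of all probe sets separated in that direction is not given here. APL4 (AT2G21590), a large subunit of ADP-glucose pyrophosphorylase, measured 88.3 ± 16.6 in the mutant and 49.0 ± 14.0 in wild type (limma adjusted p = 0.0644). Its 6 pkl arrays were all above the wild-type ones, as was the case for 4.95% of probe sets. The wild-type mean lay under the bacterial control level, though 3 of the 6 wild-type arrays lay above it. The pkl mean was 1.61 times that level, so the means give at least a 1.61-fold difference, which missed the threshold. APL4 passed with an offset of 64 (limma adjusted p = 0.0237), with only the groups compared in the fit (limma adjusted p = 0.0269) and without the wild-type array with solvent numbered 2 (limma adjusted p = 0.0111). Over all alternatives its adjusted p ran from 0.0111 to 0.166. DPE1 passed without the pkl array with uniconazole numbered 6 (limma adjusted p = 0.0411), where its adjusted p otherwise missed the threshold at 0.0962.

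Uniconazole raised 3 of the 7 starch genes in wild type, against 9.07% of probe sets that rose and 16.5% called in either direction. The genes were DPE1, PWD and SBE2.2 (AT5G03650), a starch branching enzyme. DPE1 rose from 688 ± 67.5 to 1081 ± 76.6 (signal, SD, n = 6, log2 change 0.64 ± 0.08, SE, limma adjusted p = 7.08e-07). PWD rose from 1900 ± 351 to 2949 ± 227 (log2 change 0.65 ± 0.10, limma adjusted p = 1.93e-05). SBE2.2 rose from 1817 ± 196 to 2509 ± 193 (log2 change 0.47 ± 0.10, limma adjusted p = 0.00108). For all 3 genes every treated array lay above every untreated one, against 4.04% of probe sets. The median log2 change of the 7 was 0.17, against -0.02 over all probe sets.

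In pkl uniconazole raised DPE1, PWD and SBE2.2 as well, 3 of the 7, against 11.4% of probe sets that rose and 22% called in either direction. DPE1 rose from 684 ± 66.2 to 1234 ± 111 (signal, SD, n = 6, log2 change 0.84 ± 0.08, SE, limma adjusted p = 4.54e-09). PWD rose by 0.75 and SBE2.2 by 0.41 on the log2 scale (limma adjusted p = 1.23e-06 and 0.00224). For DPE1 and PWD every treated pkl array lay above every untreated one, against 6.84% of probe sets, while for SBE2.2 5 of 6 treated arrays lay above all untreated ones. The median log2 change of the 7 was 0.42, against 0.02 over all probe sets. QQS, on the same arrays, had log2 differences of -0.44 in pkl and -0.13 in wild type.

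The remaining starch genes passed in none of the 4 comparisons between groups. APL3 (AT4G39210), another large subunit of ADP-glucose pyrophosphorylase, had group means from 1934 to 2252. AMY1 (AT4G25000), an alpha-amylase, had group means from 70.4 to 95.5, above the bacterial control level but with overlap between all groups compared. The difference between the pkl effects with and without uniconazole passed for 0 of the 7 genes in limma, with 1 at an unadjusted p below 0.05, against 0.141% of probe sets called.

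**Figure D3:**
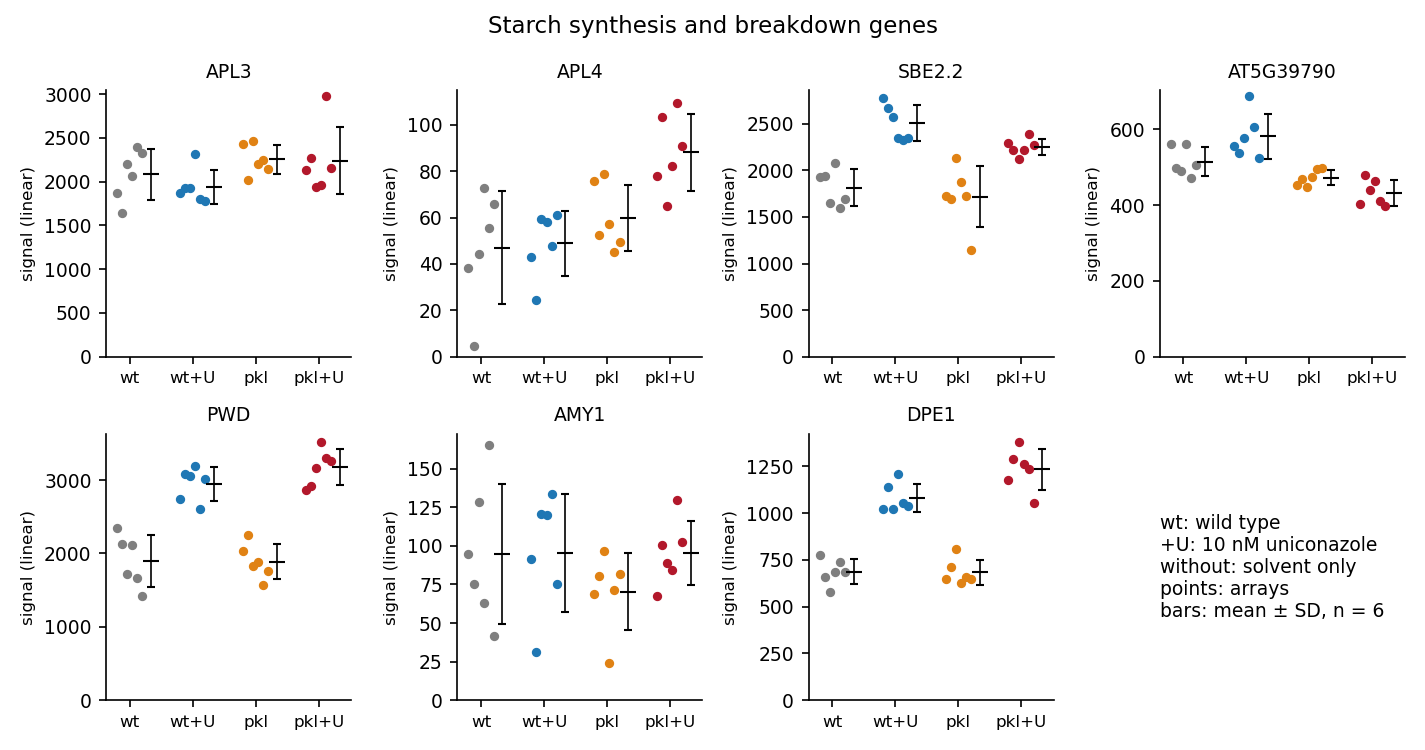
Signals (MAS5, linear scale) of the 7 starch genes on each array, with group mean and SD (n = 6); wt is wild type and +U is 10 nM uniconazole. DPE1, PWD and SBE2.2 were higher with uniconazole in both genotypes, and AT5G39790 was lower in pkl than in wild type with uniconazole.

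Of the partners and regulators listed, few could be followed. NF-YC4 and the other 22 NF-Y genes listed had no named probe set and were not analysed here, and the same holds for the 7 sugar-starvation genes. Of 24 genes for DNA methylation and its removal, 1 was named, DME (AT5G04560), a DNA glycosylase that removes methylated cytosine, with 3 probe sets. None of the 3 passed in limma for pkl against wild type with solvent, where 0 had an unadjusted p below 0.05, or with uniconazole, where 1 had, against 11.7% and 18.6% of all probe sets called. Their pkl log2 changes ran from 0.20 to 0.25 with solvent and from -0.06 to 0.31 with uniconazole. For uniconazole in wild type 1 of the 3 rose, against 9.07% of probe sets, from 478 to 670 in mean signal (log2 change 0.51 ± 0.16, SE, limma adjusted p = 0.0287), while the others had log2 changes of -0.01 and 0.23. With arrays scaled to one median the adjusted p of that probe set was 0.0729, and over the alternatives in which it lost the call it ran from 0.052 to 0.23.

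QQS stands on chromosome 3 in a stretch rich in pseudogenes. Of the 10 nearest genes on each side in the gene table, 15 of 20 are pseudogenes, against 12.7% of all genes in that table, and 3 encode proteins. The 5 nearest genes on each side with a named probe set were compared with QQS. Of these 10, 9 are pseudogenes and 1, AT3G30730, encodes a protein. Group means of 9 were at or under the bacterial control level in every group, so for these only a bound on the transcript is known.

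None of the 10 neighbours passed in any comparison between groups, and by limma 0 had an unadjusted p below 0.05 in any of them. Over all probe sets 11.7% and 18.6% were called for pkl with solvent and with uniconazole, and 16.5% and 22% for uniconazole in wild type and in pkl. Their log2 changes for pkl against wild type ran from -0.26 to 0.34 with solvent and from -0.50 to 0.58 with uniconazole, with medians of -0.07 and -0.05 against 0.00 and 0.04 over all probe sets. AT3G30730, the nearest of them, 4 genes from QQS, had the highest of these values in both media. Its signal was 35.8 ± 11.5 in pkl and 27.6 ± 17.9 in wild type with solvent, and 50.7 ± 15.1 and 31.3 ± 21.3 with uniconazole (SD, n = 6). All 4 means lay under the bacterial control level and the genotypes overlapped. A wider set of 20 neighbours on each side, added after these values were seen, had 0 of 40 called for pkl with solvent and 1 with uniconazole, against 11.7% and 18.6% of all probe sets. By limma 0 and 5 had an unadjusted p below 0.05. The gene called was AT3G30846, a pseudogene 70 genes away, named here after its value was seen, with means under the bacterial control level. For uniconazole 0 of the 40 were called in wild type (1 at an unadjusted p below 0.05 in limma), against 16.5%, and 1 of 40 in pkl, against 22%. That was AT3G30460, also named after its value was seen, at 186 with uniconazole and 125 with solvent (log2 change 0.54 ± 0.19, SE, limma adjusted p = 0.0425).

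**Figure D4:**
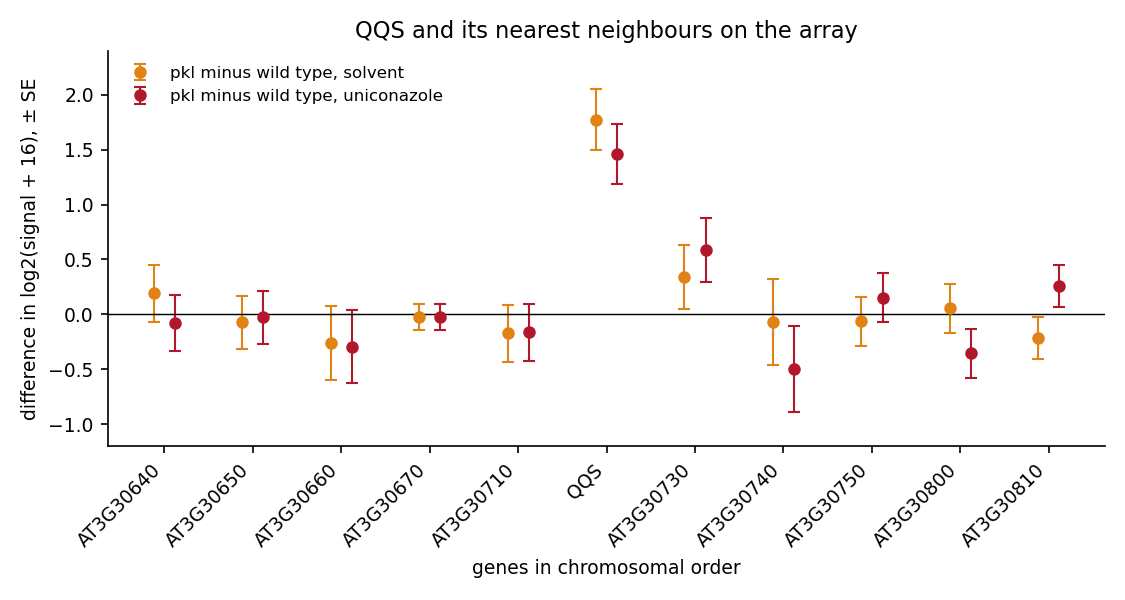
Difference between pkl and wild type in log2(signal + 16), with its SE, for QQS and the 5 nearest genes with a probe set on each side, in chromosomal order. QQS lies at 1.77 with solvent and 1.46 with uniconazole, and the 10 neighbours lie between -0.50 and 0.58.

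Pseudogenes over the whole array gave the setting for these neighbours. Of 989 probe sets for annotated pseudogenes, 5 were higher and 2 lower in pkl with solvent, which is 0.708% against 11.7% of all probe sets. With uniconazole 23 were higher and 4 lower, 2.73% against 18.6%. In 712 of the 989 both means compared with solvent lay at or under the bacterial control level, so for these only bounds on the transcript are known.

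The profile of QQS was compared with those of the other probe sets of 1 gene, by the root mean square difference between log2(signal + 16) values centred on each gene's mean over the 24 arrays. A flat profile lies 0.94 from QQS. The nearest was AT3G58540, at 0.46, and then TBL26 (AT4G01080) at 0.49, AT3G21620 at 0.52, AT5G53920 and AT1G28650 at 0.53, and AT5G53090, AT3G46720 and AT5G51500 at 0.55. TBL26 belongs to the TRICHOME BIREFRINGENCE-LIKE family, members of which add acetyl groups to cell wall polysaccharides. These 8 were picked for their likeness, so their differences between groups are not tested.

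AT3G58540 had the same order of group means as QQS. It had 636 ± 43.1 in pkl with solvent, 500.0 ± 44.0 in pkl with uniconazole, 276 ± 61.1 in wild type with solvent and 239 ± 23.6 in wild type with uniconazole (SD, n = 6). In all, 3 of the 8 shared that order, the others being AT3G21620 and AT5G51500, and 6 of the 8 had a lower mean log2 signal with uniconazole than with solvent in pkl. For 6 of the 8 the genotypes were fully separated, which follows in part from their choice by likeness to QQS. TBL26 and AT5G53920 had higher means in pkl with uniconazole than with solvent, where QQS had a lower one. TBL26 had 444 ± 53.8 with uniconazole and 391 ± 31.2 with solvent, a log2 difference of 0.17 ± 0.18 (SE). AT5G53920 had 972 ± 77.2 and 861 ± 42.6, a log2 difference of 0.17 ± 0.09 (SE). The arrays of the 2 media overlapped for both genes. Each of the 8 varied less over the arrays than QQS, with SDs between 0.59 and 0.77 on the log2 scale against 0.94.

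Deviations from the group means gave no close match. By the same measure over the 24 arrays, a flat profile lies 0.45 from QQS, and the nearest genes, AT1G29180, AT5G29040, AT4G32270, ATL4H and bZIP58, lay 0.32 to 0.33 away, over 70% of that distance.

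**Figure D5:**
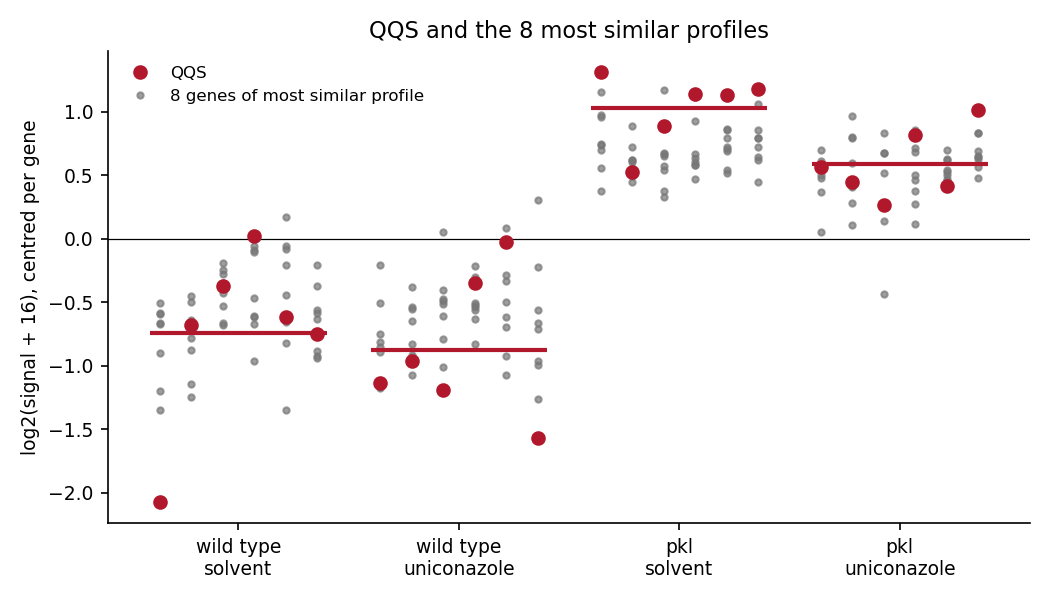
Log2(signal + 16), centred on each gene's mean over 24 arrays, for QQS (red points, with group means as red lines) and the 8 genes of most similar profile (grey points), array by array in the 4 groups. QQS falls lower than the other 8 on the wild-type array with solvent numbered 1.

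Array quality was described by signal levels and by RNA integrity. Median signals were 310.2 to 371.4. Signals below 16 made up 9.07% to 13.0% of an array. The log2 of the 3′ over the 5′ signal, which rises as RNA is broken, was 0.12 to 0.45 for GAPDH, -0.06 to 0.58 for actin and 0.41 to 1.03 for ubiquitin. For GAPDH it averaged 0.26 in wild type and 0.23 in pkl with solvent, and 0.36 in wild type and 0.29 in pkl with uniconazole. With the GAPDH and actin ratios as covariates, added after seeing the data, the pkl effect on QQS was 1.76 ± 0.29 (SE) with solvent and 1.38 ± 0.31 with uniconazole. With the share of signals under 16 as a covariate, also added later, it was 1.83 ± 0.25 (SE) and 1.29 ± 0.26.

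Markers of the labelled tissue were present, and several differed between the groups in which QQS was compared. Of 17 markers of germinating seeds 5 had a named probe set, all above the bacterial control level in every group. Their summed signal ran from 42050.5 to 54945.3 in wild type and from 41278.3 to 49077.7 in pkl with solvent, and from 46898.5 to 63633.6 and from 52222.2 to 63966.2 with uniconazole. Most of each sum came from ICL, isocitrate lyase of the glyoxylate cycle, with group means from 36255 to 39080 and no call in these comparisons.

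For pkl against wild type with solvent, 1 of the 5 seed markers rose and 1 fell, against 11.7% of all probe sets called. PAP85 encodes a storage protein of the vicilin type and measured 1000.1 ± 168 in the mutant against 167 ± 30.2 in wild type, without overlap (signal, SD, n = 6, log2 change 2.47 ± 0.14, SE, limma adjusted p = 1.0e-12). Probe sets with all pkl arrays above the wild-type ones on solvent made up 3.71% of all. OLEO3, which codes for a coat protein of oil bodies, fell in pkl from 2068 ± 327 to 1384 ± 208 (log2 change -0.57 ± 0.10, SE, limma adjusted p = 1.52e-04). With uniconazole both were higher in pkl, 2 of 5 against 18.6% called. PAP85 then had 2429 ± 387 against 304 ± 75.8, and OLEO3 had 4667 ± 286 against 3827 ± 440 (limma adjusted p = 2.25e-14 and 0.0357). The OLEO3 call with uniconazole was lost with arrays scaled to one median (limma adjusted p = 0.214), with no variance trend (0.0612) and with the RNA integrity covariates (0.0709). Uniconazole raised 4 of the 5 seed markers in each genotype, against 9.07% of probe sets that rose in wild type and 11.4% in pkl.

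Of 7 leaf markers 4 had a named probe set. They summed to 8004.8 to 11378.7 in wild type and 6541.5 to 8839.0 in pkl with solvent, and to 10516.0 to 16476.4 and 9743.7 to 15909.6 with uniconazole. Uniconazole raised all 4 in both genotypes, against the same 9.07% and 11.4%. For pkl against wild type 1 of the 4, LHCB4.2, fell with solvent (log2 change -1.17 ± 0.20, SE). There 1130 of 22746 probe sets fell and 11.7% were called in either direction. With uniconazole 2 of the 4 fell in pkl, against 8.69% of probe sets that fell. These were LHCB4.2 and RCA, with log2 changes of -0.87 and -0.34. The leaf markers did not all move 1 way. PRK was higher in pkl, by 0.22 with solvent and 0.24 with uniconazole on the log2 scale, without a call. LHCB4.1 was lower in both media, also without a call.

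Of 4 root hair markers 2 had a named probe set, EXPA7 and EXPA18, both expansins. They summed to 529.6 to 1122.3 in wild type and 652.5 to 1916.9 in pkl with solvent, and to 769.6 to 2328.3 and 1992.4 to 4853.8 with uniconazole. For pkl against wild type neither passed with solvent, with 1 at an unadjusted p below 0.05 in limma. With uniconazole both were higher in pkl than in wild type. There 2246 of 22746 probe sets were higher and 18.6% were called in either direction. With the RNA integrity covariates neither passed there (limma adjusted p = 0.138 for EXPA7 and 0.117 for EXPA18). BAN, the 1 of 7 seed coat and endosperm markers with a named probe set, was at or under the bacterial control level in every group. The part of these tissue markers in the QQS values was not tested.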

How the data were processed

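Linear signal intensities of 22810 probe sets on 24 arrays were deposited by the authors and made with MAS5, per the submitters' processing notes, with version and settings not stated. The mean after trimming 2% at each end was 1000.1 on every array. The 64 control probe sets were left out. GEO's platform annotation paired 13513 of the 22746 others with 1 gene and 503 with several, and 8730 were unnamed here; 13436 were found in a RefSeq table of TAIR10.1. No build is named by the values, so no coordinates are given.

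Tests used log2(signal + 16) and limma 3.58.1 in R 4.3.3 (lmFit, eBayes with a variance trend, 4 groups, 20 residual degrees of freedom), two-sided, adjusted by Benjamini-Hochberg over all probe sets within a contrast at 0.05, and were tested on simulated data. The p-values measure the spread between the 6 samples of a group, called biological replicates per the labels. QQS, its lists and neighbours were chosen with earlier results of these data known. Named genes were list members with a call or a role in the text, the 5 neighbours on each side, and the 8 and 5 nearest profiles. Same-numbered arrays correlated by -0.09 to 0.18 in their deviations (median 0.04), so numbers were not taken as pairs. Alternatives covered offset, scaling, filter, variance model, block and left-out arrays.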

Additional observations from a re-analysis of the deposited data

Results flagged for a closer look

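Single arrays stood apart from the other 5 of their group, by Dixon's criterion, in 7 of 138 groups examined, and chance gives about 1 in 20. Only groups with a mean above the bacterial control level were examined. The check used linear signals, and none of the 7 concerned QQS. On log2(signal + 16), which was not checked, wild-type array 1 with solvent had 5.03 for QQS. The other 5 of its group had 6.35 to 7.13. For APL3, wild-type array 4 with uniconazole had 2315.5 against 1775.9 to 1925.0 on the others, and pkl array 5 with uniconazole had 2973.2 against 1933.5 to 2267.6. For a DME probe set, wild-type array 2 with uniconazole had 209.8 against 308.8 to 348.2. For AT3G21620, wild-type array 3 with uniconazole had 196.0 against 89.1 to 125.4. Among tissue markers, pkl array 3 with uniconazole had 16734.9 for LEA4-5 against 11013.2 to 12590.8, pkl array 2 with solvent had 41289.3 for ICL against 34389.4 to 36826.1, and pkl array 1 with uniconazole had 3046.1 for EXPA18 against 1388.2 to 1586.6. For OLEO3 the pkl effect differed between the media, by 0.86 ± 0.14 (SE) on the log2 scale (limma adjusted p = 0.00371): the marker was lower in pkl with solvent and higher with uniconazole.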

How the results depend on the processing

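Across 10 alternatives in processing, the log2 difference of QQS between pkl and wild type ran from 1.31 (offset of 64) to 2.04 (offset of 1) with solvent and from 1.03 to 1.70 with uniconazole, and from 1.51 to 1.93 and 1.32 to 1.63 with each array left out. The uniconazole difference in pkl ran from -0.56 to -0.37. In wild type it ran from -0.17 to 0.01, above 0 with the 3′/5′ ratios as covariates, and from -0.40 to 0.02 with each array left out, where 2 arrays turned its sign; the cause was not tested. With the set number as a replicate block the pkl difference with solvent stayed 1.77 (SE 0.26), as the design is balanced, and 3037 probe sets passed in place of 2672; 9 of 24 arrays correlated best with their own number, and the block changed no call reported. Starch genes passing for pkl with uniconazole numbered 2 in place of 1 with an offset of 64 and with only the groups compared in the fit, and 1 to 2 with each array left out. With arrays scaled to one median, 44% in place of 57.7% of calls were higher in pkl with solvent and 35.7% in place of 53.2% with uniconazole, and 39.2% in place of 55% were higher with uniconazole in wild type and 35.5% in place of 51.9% in pkl. Other calls of starch genes kept their side of the threshold under the alternatives run. With the 3′/5′ ratios as covariates 2422 in place of 3755 probe sets passed for uniconazole in wild type, and the 32 calls for the difference between pkl effects numbered 19 with the share of low signals as a covariate and 20 with no variance trend, and 15 (without pkl array 4 with solvent) to 39 (without wild-type array 2 with solvent) with each array left out. With the filter on low signal the neighbours could not be tested. Signals near background limit the wild-type values of QQS.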
